A study of Rattus norvegicus with 6 samples.

Results

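Ribosome biogenesis factors are the proteins that make ribosomes without being part of the finished particle. They were taken here as the genes that the deposited annotation places in the KEGG pathway of ribosome biogenesis in eukaryotes and types as protein-coding, with the ribosomal proteins themselves left out by symbol. This gave 81 of the 32623 genes listed, of which 72 had enough counts to be tested. The data are RNA sequencing counts from cultured nucleus pulposus cells, which populate the soft centre of the spinal disc. The labels give male Sprague-Dawley rats of 4 weeks as the source, lumbar discs as the tissue, passages 3 to 5, and 72 hours with a lentivirus. In 3 libraries (shBmal1) the virus carried a short hairpin RNA against Bmal1, the partner of CLOCK in the core circadian transcription factor, and in the other 3 (shNC) a negative control hairpin, so that all 6 libraries come from virus-treated cells. The labels state neither the hairpin sequences nor how many were used, and do not say that the libraries of one group are separate cultures or animals. The p-values therefore measure the spread between these libraries, which may be technical.

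Ribosomes are assembled in the nucleolus around a long precursor RNA made by RNA polymerase I. Small nucleolar RNPs (snoRNPs) of the box C/D and box H/ACA classes methylate and pseudouridylate it, a large assembly around the U3 snoRNA called the small-subunit (SSU) processome folds and cuts it, and GTPases, AAA ATPases and nucleases mature both subunits before export and last steps in the cytoplasm. The programme is a large consumer of energy in growing cells, is strongly driven by MYC, and has been described as rhythmic in mouse liver.

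Total counts over genes were between 44043803 and 49783710 for shNC but only 8773762 to 11679587 for shBmal1, a 4.44-fold gap between the group means with no overlap. Mitochondrial rRNA took 330 to 602 CPM in shNC and 7223 to 13100 CPM in shBmal1, a 19.3-fold difference (exact two-sided permutation test over 3 against 3 libraries, p = 0.1, the smallest this design allows). Bmal1, listed as Arntl, fell from 27.4, 29.7 and 31.7 CPM (counts scaled to a common library size, after TMM scaling here) in the shNC libraries to 2.16, 4.24 and 2.07 CPM in the shBmal1 libraries, which left 9.55% of its control level and no overlap (log2 fold change −3.37 ± 0.26, SE; adjusted p = 1.17e-05, edgeR). Of 15 nucleus pulposus and notochord markers listed, 11 had counts in every shNC library, among them Acan, Pax1, Krt8 and Col2a1, while the notochord genes Tbxt, Shh and Noto had none. Of the 11 tested, 5 were lower in shBmal1 (Mgp, Acan, Pax1, Krt8 and Col2a1), 2 were higher (Ca3 and Foxf1), and Sox9, Cd24, Krt18 and Krt19 were not called. The summed level of the 15 was 2304 to 2655 FPKM in shNC and 373 to 399.7 FPKM in shBmal1, most of it from Mgp, at 2199 and 292 FPKM on average. Haematopoietic markers summed to 0.247 to 1.33 FPKM in shNC and 1.56 to 3.13 in shBmal1, and endothelial markers to 0.0766 to 0.218 and 1.32 to 2.08. The part of depth, rRNA share and these markers in the results that follow was not tested.

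Most ribosome biogenesis factors were higher when Bmal1 was knocked down. Of the 72 tested, 58 (80.6%) were called higher, 6 (8.33%) lower and 8 neither, at an adjusted p under 0.05 in edgeR's quasi-likelihood test adjusted over all 14342 tested genes. Over all tested genes, 36% were called higher and 35.3% lower, which makes 71.3% called in either direction. The median log2 fold change was 1.51 over the tested members and −0.01 over all tested genes. In size, 42 members were called at least 2-fold higher and 16 at least 4-fold higher, where the same rules took 25.4% and 14.3% of all tested genes. In 59 members every shBmal1 library lay above every shNC library, and in 7 every one lay below, against 38.2% and 39.1% of all tested genes. The filter on low counts was met in all 3 shNC libraries by 70 of the 72, the others being Rpp25 and LOC103690013. All 13 role groups into which the members were sorted had a median above 0. Because these are bulk libraries, more or fewer cells of a type and more or less RNA per cell cannot be told apart.

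**Figure D1:**
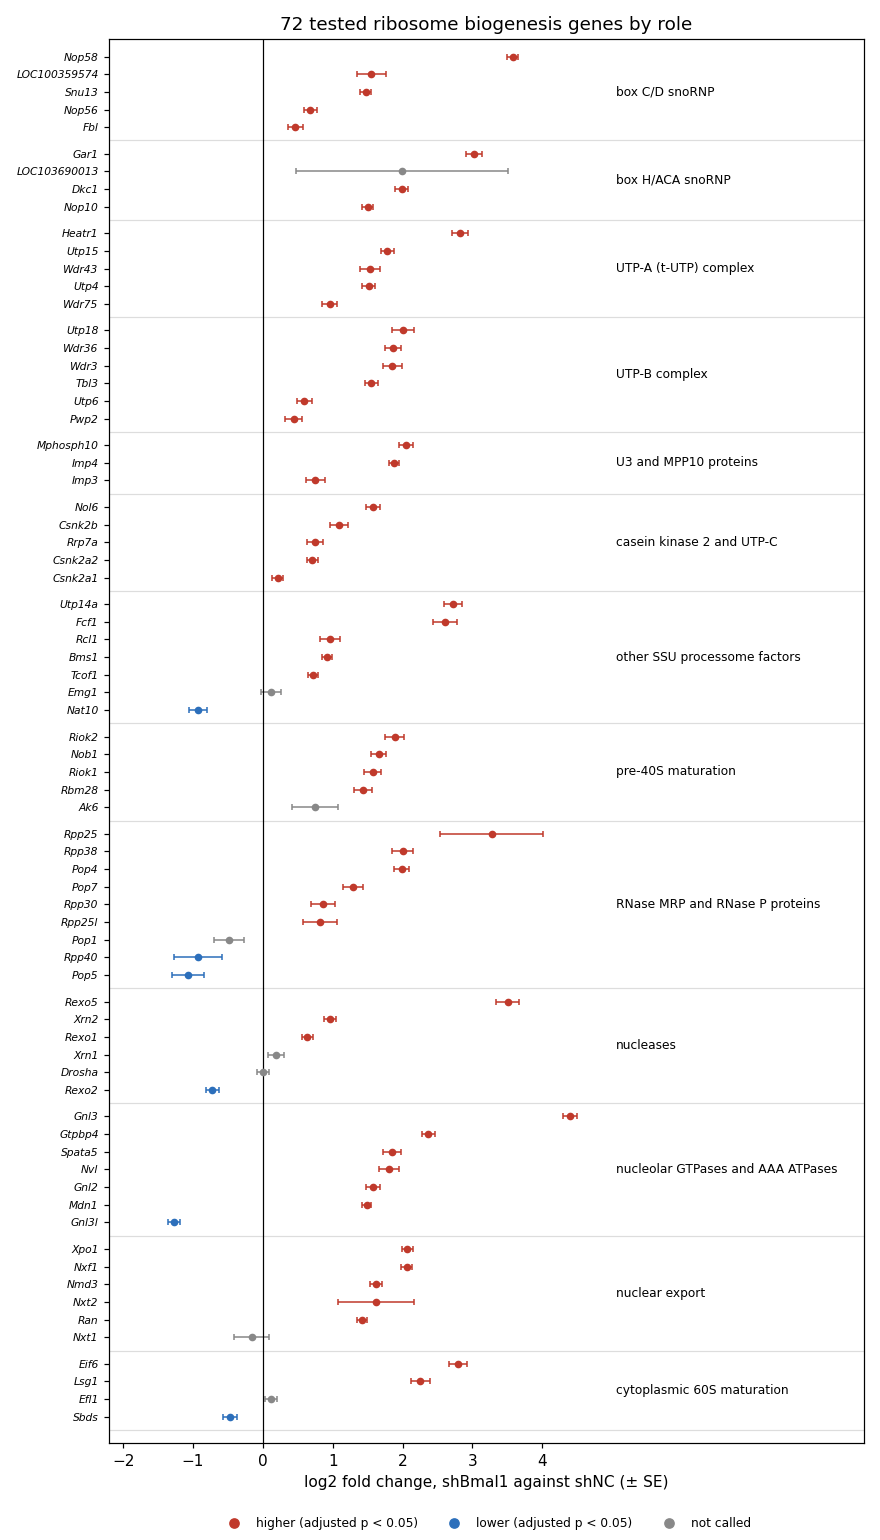
Log2 fold change of shBmal1 against shNC (x axis) for the 72 tested members, grouped by role, with bars of 1 SE; red points were called higher, blue points lower and grey points were not called. Values run from −1.27 for Gnl3l to 4.40 for Gnl3, and 58 of the 72 points are red.

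Averaged over all 6 libraries, the tested members had a median level of 53.3 CPM, against 15.6 CPM for all tested genes. That average takes in the shBmal1 libraries, where most members were higher. The members' median gene model length of 2290 bases was close to the 2372 bases of all tested genes. Their share of all counts was 0.237%, 0.243% and 0.242% with the control hairpin against 0.733%, 0.846% and 0.842% with the Bmal1 hairpin. Per length, the summed level of the 81 members was 1174, 1204 and 1205 FPKM in shNC and 3531, 4111 and 4136 FPKM in shBmal1, a 3.29-fold difference (exact two-sided permutation test, p = 0.1). Without Nop58 and Gnl3, the genes with the smallest p, the sum still went from 1152 ± 16.7 to 3231 ± 291 FPKM (SD, n = 3 per group; exact permutation p = 0.1). Rescaled to TPM, which sets the same total for each library with rRNA included, the members summed to 2878 ± 15.7 in shNC and 6783 ± 769 in shBmal1 (n = 3; exact permutation p = 0.1), and the ratio came down to 2.36. The lowest of the shBmal1 libraries was replicate 1 on each of these scales, and it was also the library with the most mitochondrial rRNA.

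**Figure D2:**
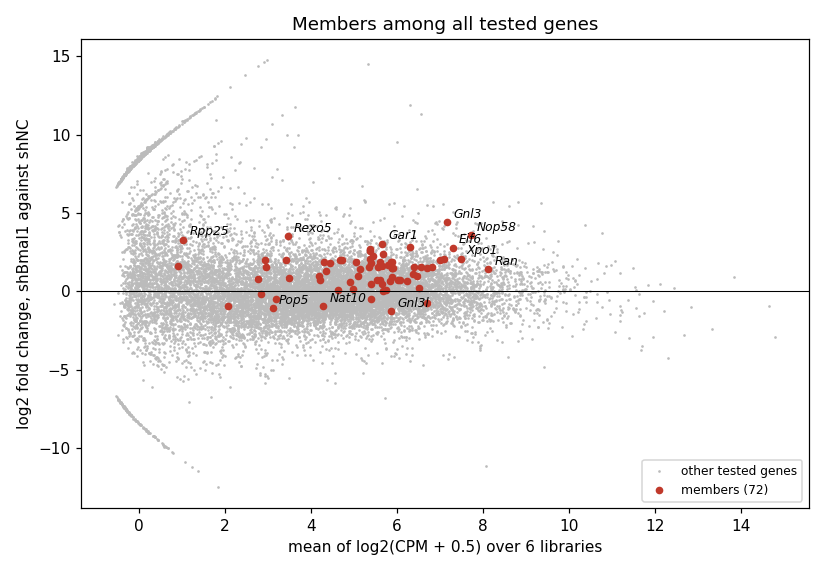
Log2 fold change (y axis) against the mean of log2(CPM + 0.5) over the 6 libraries (x axis) for all tested genes, with the 72 members in red and 11 of them named. The members lie mostly above the line of no change, around a median of 1.51. At the low end of their range the picture is mixed, with Pop5, Pop1, Rpp40 and Nxt1 below the line.

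Gnl3 and Nop58 had the smallest p of all members. Gnl3 (ENSRNOG00000028461, chromosome 16, 7097507 to 7103604, reverse strand; positions as in the files, whose build no source names) encodes nucleostemin, a nucleolar GTPase abundant in stem and tumour cells. It stood at 29.3, 32.2 and 31.5 CPM in the shNC libraries and 604, 738 and 626 CPM in the shBmal1 libraries, a log2 fold change of 4.40 ± 0.10 (SE; adjusted p = 4.32e-08, edgeR) or 21.2-fold. Nop58 (ENSRNOG00000016486, chromosome 9, 66495832 to 66519788, forward strand) encodes a scaffold protein of the box C/D snoRNP. It was measured at 61.0, 60.9 and 60.04 CPM in the shNC libraries and 659, 777 and 736 CPM in the shBmal1 libraries, a log2 fold change of 3.58 ± 0.08 (SE; adjusted p = 4.32e-08, edgeR) or 11.9-fold. For both genes the 3 control libraries were close together and the lowest shBmal1 library was far above the highest control.

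The promoters of the members are of interest because BMAL1 with CLOCK, and MYC with MAX, are known to bind the E-box CACGTG. RefSeq promoter windows (GRCr8, 250 bases before to 50 after the annotated gene start) were matched by name for 64 of the 81 members. Of 13 short motifs searched on both strands, CACGTG was found in 18 of these 64 windows (28.1%), against 6.42% of all 33469 windows and 9.35% of the 9889 windows of tested genes. The core of the ETS factor motif, CCGGAA, was present in 37 (57.8%, against 15% of all windows and 28.1% of those of tested genes), and the variant E-box CACGTT in 5 (7.81%, 4.83% and 5.58%). TATAAA was found in 2 (3.12%, 14.2% and 6.78%). For the other motifs the shares are given in the same order, members, all windows and windows of tested genes. CANNTG, which takes in CACGTG, was in 39 windows (60.9%, 72.1% and 62.1%), and CTTTCC in 16 (25%, 26.4% and 26%). GGGCGGG was in 24 (37.5%, 22.7% and 46.3%), above the share of all windows but below that of tested genes. AAGATGGC (4.69%, 3.17% and 5.63%) and CGCGAGA (4.69%, 2.39% and 5.29%), each in 3, lay between both backgrounds likewise. TCGCGAGA, which contains CGCGAGA, was in the same number (4.69%, 0.855% and 2.19%), CCATNTT in 14 (21.9%, 18.3% and 17%), TGACGTCA in 2 (3.12%, 1.83% and 3.08%) and the NRF1 palindrome in none (0.852% of all windows and 1.88% of those of tested genes). The 16 tested members with CACGTG had a median log2 fold change of 1.45, with 14 called higher and 2 lower, and the 43 without it had a median of 1.57, with 35 higher and 4 lower. The 3 members with CACGTG that rose most, the one that fell most, and Nop58, whose window holds only the variant, are shown with CACGTG or the variant (printed as AACGTG where it lies on the other strand) in capitals. They come from chr16:6219733-6220032, reverse strand, for Gnl3, chr10:79335708-79336007, reverse strand, for Utp18, chr17:79823118-79823417, forward strand, for Rpp38, chr3:110604780-110605079, reverse strand, for Nat10, and chr9:68614824-68615123, forward strand, for Nop58. Each is written 5′ to 3′ on the strand of its gene, and the sequences are from RefSeq.
Gnl3: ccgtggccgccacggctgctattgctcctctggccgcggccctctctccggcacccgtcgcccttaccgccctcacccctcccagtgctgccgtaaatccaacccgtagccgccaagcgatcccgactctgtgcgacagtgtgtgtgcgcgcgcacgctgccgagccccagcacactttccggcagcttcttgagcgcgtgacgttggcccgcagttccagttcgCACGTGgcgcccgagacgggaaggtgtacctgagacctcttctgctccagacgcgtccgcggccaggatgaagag
Utp18: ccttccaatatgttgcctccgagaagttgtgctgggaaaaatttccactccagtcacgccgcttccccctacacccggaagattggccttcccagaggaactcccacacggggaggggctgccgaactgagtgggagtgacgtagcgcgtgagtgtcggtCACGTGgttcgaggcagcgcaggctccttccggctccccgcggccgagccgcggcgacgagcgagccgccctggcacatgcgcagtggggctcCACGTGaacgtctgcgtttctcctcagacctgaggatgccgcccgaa
Rpp38: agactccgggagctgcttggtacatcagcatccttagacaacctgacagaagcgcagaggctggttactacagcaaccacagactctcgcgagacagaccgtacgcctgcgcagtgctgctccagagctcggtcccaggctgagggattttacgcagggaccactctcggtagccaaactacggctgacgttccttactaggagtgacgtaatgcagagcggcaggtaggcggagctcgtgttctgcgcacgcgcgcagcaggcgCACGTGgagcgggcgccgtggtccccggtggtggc
Nat10: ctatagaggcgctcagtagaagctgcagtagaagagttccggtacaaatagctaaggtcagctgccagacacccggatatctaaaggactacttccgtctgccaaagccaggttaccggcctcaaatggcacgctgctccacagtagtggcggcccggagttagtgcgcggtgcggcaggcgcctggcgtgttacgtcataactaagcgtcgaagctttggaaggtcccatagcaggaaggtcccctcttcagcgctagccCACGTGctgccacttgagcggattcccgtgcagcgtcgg
Nop58: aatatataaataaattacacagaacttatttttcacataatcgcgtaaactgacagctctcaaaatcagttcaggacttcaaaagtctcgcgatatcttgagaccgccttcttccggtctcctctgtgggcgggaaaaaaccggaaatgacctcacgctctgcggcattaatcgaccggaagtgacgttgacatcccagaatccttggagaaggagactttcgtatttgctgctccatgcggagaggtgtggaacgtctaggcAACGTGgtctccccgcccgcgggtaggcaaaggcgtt
In Gnl3 the E-box begins 25 bases before the gene start, in Utp18 one copy begins 90 bases before it and another at base 4 of the gene, and in Rpp38 and Nat10 it begins at bases 16 and 12 of the gene. A match of letters does not show binding, and the windows follow RefSeq starts rather than starts measured in these cells.

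Among the box C/D snoRNP proteins, which carry out the methylation of ribosomal RNA, all 5 tested genes rose, but by very different amounts. Nop58 has been described above. Snu13, which encodes the protein that first recognises the kink in box C/D RNAs, gave 33.3, 35.0 and 38.0 CPM in the shNC libraries and 97.5, 98.5 and 98.5 CPM in the shBmal1 libraries and a log2 fold change of 1.47 ± 0.08 (SE; adjusted p = 1.19e-06, edgeR). LOC100359574, a gene whose description is an older name of Snu13 followed by -like, gave 4.92, 3.93 and 3.68 CPM in the shNC libraries and 12.6, 13.4 and 10.8 CPM in the shBmal1 libraries (1.55); it lies inside Cacul1 on the opposite strand and resembles Snu13, so its counts are uncertain. With the gene length trend removed its log2 fold change came down to 0.77 (adjusted p = 0.009, edgeR). Snu13 came down likewise, to 0.92 (adjusted p = 2.1e-05, edgeR), and to 1.025 with quantile-normalized FPKM, and stayed called. Nop56, which encodes the partner scaffold of NOP58, rose from 58.7 ± 3.00 to 93.9 ± 10.1 CPM (0.68; SD, n = 3 per group), and the methyltransferase gene Fbl from 42.6 ± 2.62 to 58.5 ± 7.30 CPM (0.46). The rise of Fbl was not called after rescaling to TPM (log2 fold change 0.08, adjusted p = 0.579, limma) or with quantile-normalized FPKM (0.23, adjusted p = 0.0507, limma). Fbl also overlaps Dyrk1b on the same strand. Fbll1, a relative of Fbl, had 8 counts in shBmal1 replicate 2 and none elsewhere.

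The order of the core box C/D genes therefore differed between the groups. Per length, Nop58 and Nop56 were near equal in shNC, at 27.7, 28.0 and 27.9 FPKM and 29.1, 29.0 and 27.0 FPKM, and Fbl (32.0, 35.5 and 32.0) and Snu13 (50.4, 53.5 and 58.7) were above both. In shBmal1, Nop58 led at 325, 384 and 369 FPKM, ahead of Snu13 (160.1, 162 and 164), while Nop56 (42.9, 50.0 and 54.1) and Fbl (41.9, 53.6 and 52.0) overlapped. The ratio of Nop58 to Nop56 within a library, which does not depend on the scaling between libraries, lay at 0.953, 0.966 and 1.03 for shNC, against 7.58, 7.68 and 6.81 for shBmal1 (exact two-sided permutation test, p = 0.1).

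Of the 4 tested genes for proteins of the box H/ACA snoRNP, whose dyskerin subunit makes pseudouridine, 3 were called higher. Gar1 was found at 15.2, 18.98 and 18.0 CPM in the shNC libraries and 128, 151 and 146 CPM in the shBmal1 libraries, a log2 fold change of 3.02 ± 0.11 (SE; adjusted p = 2.54e-07, edgeR). Dkc1, which encodes dyskerin itself, was at 59.5, 70.6 and 60.7 CPM in the shNC libraries and 231, 260.1 and 266 CPM in the shBmal1 libraries (log2 fold change 1.99 ± 0.09, SE; adjusted p = 6.93e-07, edgeR). For Nop10, a small core subunit, values of 34.7, 33.6 and 36.6 CPM in the shNC libraries and 99.0, 105 and 93.0 CPM in the shBmal1 libraries gave 1.503 ± 0.08 (SE; adjusted p = 1.32e-06, edgeR). In all of these genes the groups were far apart. The ratio of Gar1 to Dkc1 in FPKM lay at 0.319, 0.336 and 0.371 for shNC, against 0.691, 0.723 and 0.687 for shBmal1 (exact permutation p = 0.1), with no overlap between the groups.

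The remaining H/ACA subunit, NHP2, is listed under Nhp2 and LOC103690013, both on chromosome 10 and both annotated as this subunit. In every library one of the copies held all of the counts. Nhp2 had 860 counts in shNC replicate 2 and 715 in shBmal1 replicate 2 and none in the other 4 libraries, while LOC103690013 had 707 and 566 in shNC replicates 1 and 3, 453 and 821 in shBmal1 replicates 1 and 3, and none in either replicate 2. Nhp2 was not tested for lack of libraries with counts, and LOC103690013 had a log2 fold change of 1.99 ± 1.52 (SE; adjusted p = 0.27, edgeR), or 1.27 without shBmal1 replicate 3. With both copies summed, a setting chosen after seeing the data, the subunit went from 15.9 ± 2.42 to 58.4 ± 9.58 CPM (SD, n = 3), a log2 fold change of 1.88 ± 0.16 (adjusted p = 1.72e-05, edgeR), and 59 members in place of 58 were called higher.

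**Figure D3:**
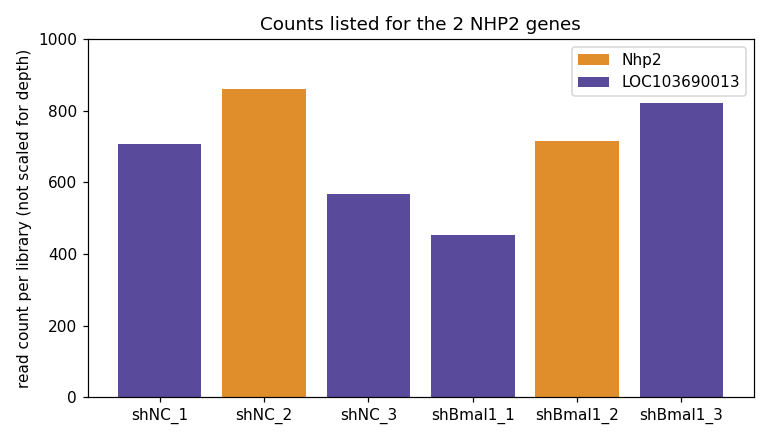
Read counts listed for Nhp2 (orange) and LOC103690013 (purple) in each library (y axis, not scaled for depth), 1 bar per library. Each bar has a single colour, orange in replicate 2 of both groups with 860 and 715 counts and purple in the other 4 libraries.

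The SSU processome genes rose across its subcomplexes. UTP-A, which joins the precursor first, had all 5 tested genes higher with a median log2 fold change of 1.53. Heatr1, listed as LOC108348069 and described as HEAT repeat-containing protein 1, had the largest change, with 30.4, 31.0 and 27.6 CPM in the shNC libraries and 194, 241 and 194 CPM in the shBmal1 libraries (log2 fold change 2.82 ± 0.11, SE; adjusted p = 2.86e-07, edgeR). Utp15 had 23.0, 22.4 and 21.6 CPM in the shNC libraries and 71.3, 83.9 and 75.2 CPM in the shBmal1 libraries (log2 fold change 1.78 ± 0.09, SE; adjusted p = 1.00e-06, edgeR) and Utp4, mutated in a childhood liver disease in humans, 35.7, 36.8 and 32.8 CPM in the shNC libraries and 92.0, 107 and 101 CPM in the shBmal1 libraries (log2 fold change 1.51 ± 0.09, SE; adjusted p = 2.10e-06, edgeR). Wdr43 (1.53) and Wdr75 (0.96) were called higher too, and no library of either group crossed over in any of the 5. Heatr1 overlaps Lgals8 on the opposite strand and AABR07028352 on its own, neither of which was called (log2 fold changes 0.12 and −0.37).

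UTP-B, a scaffold that binds the U3 snoRNA and the start of the precursor, had all 6 genes higher. Tbl3 lay at 30.2, 26.1 and 26.0 CPM in the shNC libraries and 75.4, 84.6 and 80.9 CPM in the shBmal1 libraries (log2 fold change 1.55 ± 0.09, SE; adjusted p = 2.67e-06, edgeR). Wdr36, a gene linked to glaucoma in humans, lay at 22.9, 24.4 and 29.0 CPM in the shNC libraries and 84.0, 91.8 and 100.4 CPM in the shBmal1 libraries (log2 fold change 1.86 ± 0.12, SE; adjusted p = 3.21e-06, edgeR), and Wdr3 at 30.5, 31.2 and 29.3 CPM in the shNC libraries and 87.5, 131 and 110.2 CPM in the shBmal1 libraries (log2 fold change 1.85 ± 0.14, SE; adjusted p = 9.54e-06, edgeR). Utp18 rose by 2.01 on the log2 scale, and the groups were separate for all 6. Utp6 (0.59) and Pwp2 (0.44) moved least and lost their calls after rescaling to TPM (adjusted p = 0.12 and 0.753, limma); Pwp2 also missed the threshold without shBmal1 replicate 2 or replicate 3 (adjusted p = 0.0559 and 0.0554, edgeR).

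The 3 genes of the MPP10 complex, which pairs U3 with the precursor, rose as well. For Imp4 the values were 31.7, 30.4 and 30.1 CPM in the shNC libraries and 107, 114 and 118 CPM in the shBmal1 libraries (log2 fold change 1.88 ± 0.07, SE; adjusted p = 2.98e-07, edgeR). Mphosph10, the namesake, showed 18.9, 21.1 and 20.8 CPM in the shNC libraries and 77.8, 92.5 and 80.1 CPM in the shBmal1 libraries (log2 fold change 2.04 ± 0.10, SE; adjusted p = 8.13e-07, edgeR), and Imp3, the least changed, 14.8, 12.6 and 14.5 CPM in the shNC libraries and 22.4, 21.3 and 26.7 CPM in the shBmal1 libraries (log2 fold change 0.75 ± 0.14, SE; adjusted p = 0.00149, edgeR). Groups did not overlap in any of them. In the set of casein kinase 2 and UTP-C, all 5 genes were called higher with a median of 0.75. Nol6, a UTP-C subunit gene, was at 68.5, 65.0 and 60.4 CPM in the shNC libraries and 164, 212 and 202 CPM in the shBmal1 libraries (log2 fold change 1.58 ± 0.11, SE; adjusted p = 4.85e-06, edgeR). The kinase's regulatory subunit gene Csnk2b was at 58.7, 58.1 and 52.9 CPM in the shNC libraries and 102, 117 and 142 CPM in the shBmal1 libraries (log2 fold change 1.09 ± 0.12, SE; adjusted p = 9.17e-05, edgeR) and its catalytic subunit gene Csnk2a2 at 36.5, 33.7 and 37.1 CPM in the shNC libraries and 58.8, 55.9 and 60.3 CPM in the shBmal1 libraries (log2 fold change 0.71 ± 0.08, SE; adjusted p = 9.41e-05, edgeR). Rrp7a (0.75) rose too, and overlaps Serhl2 on the opposite strand. The other catalytic gene, Csnk2a1, changed little (83.9 ± 1.83 to 97.4 ± 8.79 CPM; log2 fold change 0.21, adjusted p = 0.0411, edgeR). Its call was lost under most alternatives, with adjusted p of 0.0911 to 0.141 when any 1 library but shBmal1 replicate 2 was left out (edgeR), and it turned to −0.16 with TPM and −0.11 with quantile-normalized FPKM. The ratio of Csnk2a1 to Csnk2a2 in FPKM was 2.05 to 2.25 in shNC and 1.45 to 1.65 in shBmal1 (exact permutation p = 0.1).

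Other SSU processome factors were mixed, with 5 of 7 higher, Nat10 lower and Emg1 not called. Utp14a, which encodes a partner of the helicase DHX37, rose most, with 16.8, 14.3 and 16.9 CPM in the shNC libraries and 89.2, 119.8 and 106 CPM in the shBmal1 libraries (log2 fold change 2.72 ± 0.13, SE; adjusted p = 8.14e-07, edgeR). Fcf1, which encodes the nuclease of a cut at the start of the small-subunit RNA, had 17.8, 17.8 and 14.2 CPM in the shNC libraries and 78.1, 113 and 112 CPM in the shBmal1 libraries (log2 fold change 2.61 ± 0.17, SE; adjusted p = 3.77e-06, edgeR), and the GTPase gene Bms1 44.9, 41.1 and 41.9 CPM in the shNC libraries and 76.7, 81.2 and 83.3 CPM in the shBmal1 libraries (log2 fold change 0.92 ± 0.08, SE; adjusted p = 1.50e-05, edgeR). Each of these was higher in all 3 knockdown libraries. Rcl1 (0.96) and Tcof1, the gene of Treacher Collins syndrome in humans (0.72), rose less. Nat10, the acetyltransferase that makes acetylcytidine in ribosomal RNA, went the other way, with 26.6, 27.8 and 24.3 CPM in the shNC libraries and 12.1, 15.1 and 13.9 CPM in the shBmal1 libraries (log2 fold change −0.93 ± 0.13, SE; adjusted p = 0.000303, edgeR). Its highest shBmal1 library was below its lowest control. Emg1, a methyltransferase gene, stood at 23.3 ± 1.301 and 25.3 ± 4.40 CPM (log2 fold change 0.12 ± 0.14, SE) with overlapping groups, and it overlaps Lpcat3 on the opposite strand, for which the log2 fold change was −0.82.

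**Figure D4:**
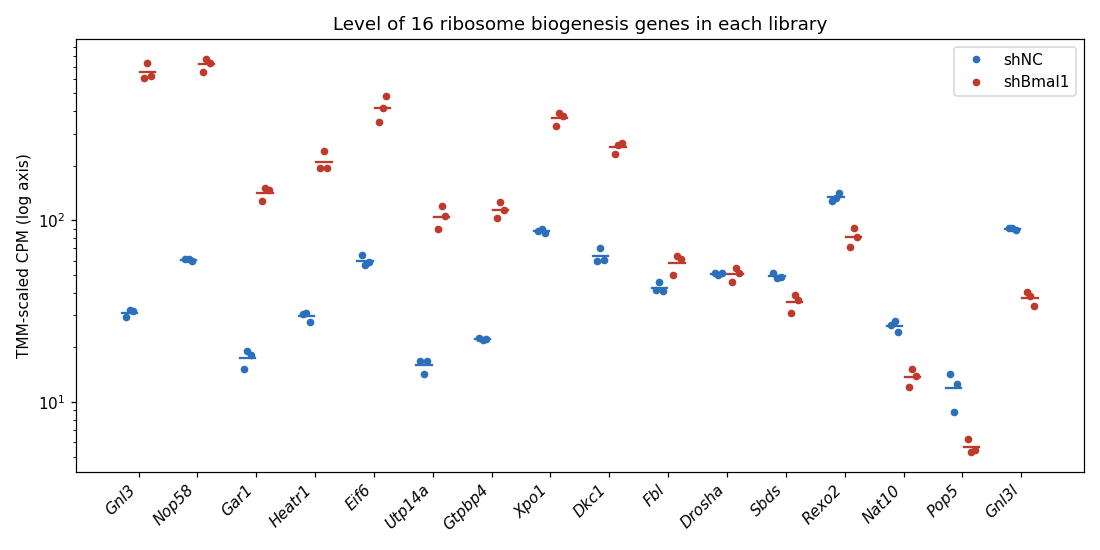
TMM-scaled CPM (log axis) of 16 members in each library, with shNC in blue, shBmal1 in red and a line at each group mean. The groups are separate for every gene but Drosha, with shBmal1 above shNC from Gnl3 to Fbl and below it from Sbds to Gnl3l.

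Late small-subunit maturation takes place partly in the cytoplasm, and 4 of its 5 listed genes rose. Nob1, which encodes the nuclease of the last cut of the small-subunit RNA, was measured at 30.1, 30.2 and 32.2 CPM in the shNC libraries and 81.4, 102 and 108 CPM in the shBmal1 libraries (log2 fold change 1.66 ± 0.11, SE; adjusted p = 5.31e-06, edgeR). The atypical kinase genes Riok2 and Riok1 were measured at 16.5, 17.5 and 16.6 CPM in the shNC libraries and 49.6, 71.4 and 66.2 CPM in the shBmal1 libraries (log2 fold change 1.89 ± 0.14, SE; adjusted p = 8.25e-06, edgeR) and at 25.9, 20.6 and 23.9 CPM in the shNC libraries and 62.4, 69.5 and 76.7 CPM in the shBmal1 libraries (log2 fold change 1.57 ± 0.12, SE; adjusted p = 9.19e-06, edgeR). The groups were clearly apart for these genes. Rbm28, listed with them although its yeast relative Nop4 serves the large subunit, rose by 1.43. Ak6, an adenylate kinase gene, gave 18.4, 51.0 and 47.6 CPM in the shNC libraries and 64.4, 62.9 and 69.0 CPM in the shBmal1 libraries and did not pass (log2 fold change 0.75, adjusted p = 0.0741, edgeR). The low value was shNC replicate 1, without which the log2 fold change was 0.40 (adjusted p = 0.0102, edgeR). Without shNC replicate 2 it was 0.99 (adjusted p = 0.0444). Ak6 overlaps Taf9 on the same strand, and Taf9 too was lowest in shNC replicate 1, at 300 counts against 806 and 685 in the other shNC libraries.

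RNase MRP and RNase P share protein subunits and cut precursor rRNA and tRNA. Of their 9 tested genes, 6 rose, 2 fell and 1 was not called (66.7% higher and 22.2% lower, against 36% and 35.3% of all tested genes). Pop4 was at 12.9, 12.7 and 11.9 CPM in the shNC libraries and 53.6, 50.0 and 45.1 CPM in the shBmal1 libraries (log2 fold change 1.99 ± 0.10, SE; adjusted p = 1.26e-06, edgeR). Rpp38 was at 5.27, 4.78 and 5.18 CPM in the shNC libraries and 18.2, 20.9 and 21.9 CPM in the shBmal1 libraries (log2 fold change 2.00 ± 0.15, SE; adjusted p = 9.59e-06, edgeR) and Pop7 at 15.02, 12.2 and 10.7 CPM in the shNC libraries and 29.4, 32.6 and 30.6 CPM in the shBmal1 libraries (log2 fold change 1.29 ± 0.15, SE; adjusted p = 0.000104, edgeR), so that all 3 had separate groups. Rpp30 (0.85) and Rpp25l (0.82) rose less, and Rpp25l lost its call with TPM (adjusted p = 0.0574, limma), with the gene length trend removed (adjusted p = 0.127, edgeR) and without shNC replicate 1 (adjusted p = 0.0502, edgeR). Rpp25 went from 5, 17 and 37 counts in shNC to 26, 81 and 45 counts in the shallower shBmal1 libraries (0.112, 0.361 and 0.879 CPM in the shNC libraries and 2.80, 6.61 and 3.73 CPM in the shBmal1 libraries; log2 fold change 3.28 ± 0.74, SE; adjusted p = 0.00434, edgeR). It reached the count filter through shBmal1, so its direction was largely set by that filter. Its log2 fold change was 4.17 without shNC replicate 3 and 2.81 without shNC replicate 1, and 1.91 with log2(TPM + 1). Pop5 fell, with 14.2, 8.84 and 12.6 CPM in the shNC libraries and 6.25, 5.31 and 5.46 CPM in the shBmal1 libraries (log2 fold change −1.07 ± 0.23, SE; adjusted p = 0.00344, edgeR). Rpp40 was also called lower, with 5.61, 4.76 and 5.08 CPM in the shNC libraries and 3.56, 3.02 and 1.57 CPM in the shBmal1 libraries (log2 fold change −0.93 ± 0.34, SE; adjusted p = 0.0393, edgeR). The call of Rpp40 rests on few counts and was lost without shNC replicate 1, 2 or 3 (adjusted p = 0.11, 0.0801 and 0.0895, edgeR). Pop1 had a log2 fold change of −0.48 and did not pass, although it was called lower with TPM (adjusted p = 0.0145, limma).

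Of the 6 nuclease genes tested, 3 rose, 1 fell and 2 did not pass. That is 50% higher and 16.7% lower, against 36% and 35.3% of all tested genes. So few genes do not set the group apart from that share. Rexo5, a less-studied nucleolar exonuclease gene, rose from a low level, with 3.03, 3.29 and 2.73 CPM in the shNC libraries and 32.6, 30.4 and 39.9 CPM in the shBmal1 libraries (log2 fold change 3.50 ± 0.16, SE; adjusted p = 6.69e-07, edgeR). Xrn2, the nuclear exonuclease gene whose product trims precursor ends and spacers, had 59.5, 66.1 and 64.7 CPM in the shNC libraries and 113, 132 and 126 CPM in the shBmal1 libraries (log2 fold change 0.96 ± 0.08, SE; adjusted p = 1.80e-05, edgeR), and Rexo1 45.9, 44.3 and 46.2 CPM in the shNC libraries and 64.8, 73.0 and 74.0 CPM in the shBmal1 libraries (log2 fold change 0.63 ± 0.08, SE; adjusted p = 0.000183, edgeR). The Rexo1 rise was not called with TPM (adjusted p = 0.0542, limma). Rexo2, which encodes an oligoribonuclease found largely in mitochondria, fell, with 127, 133 and 141 CPM in the shNC libraries and 71.5, 90.5 and 80.8 CPM in the shBmal1 libraries (log2 fold change −0.72 ± 0.09, SE; adjusted p = 0.000226, edgeR). The groups did not overlap for any of these 4. Xrn1, the cytoplasmic counterpart of Xrn2, went from 28.9 ± 3.26 to 32.9 ± 2.37 CPM (log2 fold change 0.19 ± 0.12, SE) without passing. Drosha, known mainly for microRNA processing, was level at 51.2, 49.9 and 51.0 CPM in the shNC libraries and 45.8, 54.7 and 51.1 CPM in the shBmal1 libraries (log2 fold change −0.0036 ± 0.09, SE), with the groups interleaved. With TPM it was called lower (log2 fold change −0.38, adjusted p = 0.0181, limma). Rexo1l1-ps1, a copy typed as protein-coding but described as a pseudogene, had 6 counts in shBmal1 replicate 2 and none elsewhere. The ratio of Xrn2 to Xrn1 in FPKM was 3.41 to 3.83 in shNC and 5.77 to 6.84 in shBmal1 (exact permutation p = 0.1).

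Nucleolar GTPases and AAA ATPases, which serve the large subunit, held both extremes of the whole set. Besides Gnl3, Gtpbp4 rose, with 22.6, 21.8 and 22.3 CPM in the shNC libraries and 103, 127 and 114 CPM in the shBmal1 libraries (log2 fold change 2.37 ± 0.09, SE; adjusted p = 3.17e-07, edgeR). Mdn1, listed as AABR07047789 and described as midasin, the giant ATPase that strips factors from the large subunit, had 61.5, 63.0 and 60.1 CPM in the shNC libraries and 164, 177 and 177 CPM in the shBmal1 libraries (log2 fold change 1.49 ± 0.06, SE; adjusted p = 5.05e-07, edgeR). Spata5 (1.85), Nvl (1.80) and Gnl2 (1.57) rose by similar amounts. Gnl3l, a paralog of Gnl3, had the largest fall of all members, with 90.7, 91.1 and 88.6 CPM in the shNC libraries and 40.3, 38.1 and 33.8 CPM in the shBmal1 libraries (log2 fold change −1.27 ± 0.08, SE; adjusted p = 4.65e-06, edgeR). In FPKM the ratio of Gnl3 to Gnl3l lay at 0.758, 0.829 and 0.834 for shNC, against 35.2, 45.5 and 43.5 for shBmal1 (exact permutation p = 0.1). Since both genes had separate groups in opposite directions, the ratio had to separate too, and its p adds nothing. Per length, Gnl3 was thus somewhat below its paralog in every control library and far above it after knockdown.

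Nuclear export genes rose in 5 of 6 tested. Xpo1, which encodes the exportin that carries both subunits out of the nucleus, lay at 87.4, 89.4 and 84.7 CPM in the shNC libraries and 331, 391 and 375 CPM in the shBmal1 libraries (log2 fold change 2.07 ± 0.08, SE; adjusted p = 2.54e-07, edgeR). Nxf1, the main messenger RNA exporter, lay at 68.1, 68.0 and 62.5 CPM in the shNC libraries and 251, 285 and 293 CPM in the shBmal1 libraries (log2 fold change 2.06 ± 0.08, SE; adjusted p = 2.98e-07, edgeR). Ran, the GTPase gene of nuclear transport and the most abundant member per length in both groups, lay at 171, 168 and 174 CPM in the shNC libraries and 419, 472 and 480.1 CPM in the shBmal1 libraries (log2 fold change 1.42 ± 0.07, SE; adjusted p = 8.38e-07, edgeR), which is 141, 140.3 and 147 FPKM in shNC and 375, 423 and 437 FPKM in shBmal1; the log2 fold change was 0.81 with quantile-normalized FPKM. Groups were well apart for each of the 3. Nmd3, the adaptor between the large subunit and exportin, rose by 1.63. Nxt2 passed with a log2 fold change of 1.62 (adjusted p = 0.0282, edgeR) at 0.783 ± 0.308 to 2.42 ± 0.9997 CPM, and lost its call when any 1 library other than shBmal1 replicate 2 was left out (adjusted p = 0.0577 to 0.0913, edgeR). Nxt1 (−0.16) did not pass. Nxf3, Nxf7, RGD1306195 and AABR07040617 had no count in any library, and Nxf2 and Rasl2-9 had at most 15 in a library and were not tested.

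Of the 4 tested genes for the last steps of the large subunit in the cytoplasm, 2 rose, 1 fell and 1 was not called. That is 50% higher and 25% lower, against 36% and 35.3% of all tested genes, and the genes are too few to tell these shares apart. Eif6, whose product keeps the subunits apart until the large one is mature, had 64.6, 56.5 and 58.8 CPM in the shNC libraries and 347, 417 and 481 CPM in the shBmal1 libraries (log2 fold change 2.79 ± 0.13, SE; adjusted p = 5.91e-07, edgeR). Lsg1, the GTPase gene needed for the release of NMD3, had 20.6, 20.4 and 18.6 CPM in the shNC libraries and 76.6, 98.7 and 109 CPM in the shBmal1 libraries (log2 fold change 2.26 ± 0.14, SE; adjusted p = 2.65e-06, edgeR). Both were higher in every knockdown library. The products of Sbds and Efl1 together release EIF6. Sbds, the gene of Shwachman-Diamond syndrome in humans, fell, with 51.0, 48.4 and 48.7 CPM in the shNC libraries and 30.7, 39.0 and 36.6 CPM in the shBmal1 libraries (log2 fold change −0.48 ± 0.10, SE; adjusted p = 0.00344, edgeR) and no overlap. Efl1 was at 51.1, 52.7 and 48.5 CPM in the shNC libraries and 50.4, 54.9 and 59.0 CPM in the shBmal1 libraries (log2 fold change 0.11 ± 0.09, SE; adjusted p = 0.278, edgeR), with overlapping groups. Eif6 stood to Sbds in FPKM as 1.43, 1.32 and 1.36 to 1 in the controls and as 12.8, 12.1 and 14.9 to 1 after knockdown (exact permutation p = 0.1). This p too was fixed by the separate groups of the genes, which moved in opposite directions. Ran, Nop58, Gnl3 and Eif6 were the members with the highest levels in shBmal1, at 412, 359, 336 and 335 FPKM on average, whereas Ran, Rexo2 and Snu13 had led in shNC at 143, 103 and 54.2 FPKM.

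Ribosome biogenesis genes outside the KEGG set moved in the same direction. Of 108 genes on 5 lists drawn from textbook knowledge, 91 rose, 5 fell and 12 did not pass (84.3% higher, against 36% of all tested genes), with a median log2 fold change of 1.20. After rescaling to TPM, 71 were called higher and 11 lower, where 28.2% of all tested genes were called higher. Among 43 large-subunit and nucleolar assembly genes, 40 rose and 2 fell. Nol8 is annotated at 2 places on chromosome 17, both called higher (2.80 and 1.99), and counts as 2 genes here and among the 108. How reads were divided between these copies is not known. Brix1, an assembly factor of the large subunit, went from 25.8 ± 0.686 to 550.0 ± 52.2 CPM, a log2 fold change of 4.41 ± 0.09 (SE; adjusted p = 3.68e-08, edgeR), and Pes1 and Mak16 rose by 3.24 and 3.47. Nol9 (−0.92) and Rrp1b (−0.89) fell and Wdr18 (−0.22) did not pass. Of 23 small-subunit assembly genes 22 rose, among them Utp3 at 31.2 ± 1.10 to 631 ± 90.5 CPM, a log2 fold change of 4.34 ± 0.12 (SE; adjusted p = 6.60e-08, edgeR), with Utp20 at 2.30 and Utp11 at 1.77, and Rrp36 (−0.13) did not pass.

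Of 15 nucleolar RNA helicase genes 12 rose, among them Ddx47 (2.74), Ddx18 (2.22) and Ddx24 (1.94), while Dhx37 (−0.06), Ddx51 (−0.04) and Dhx33 (0.04) did not pass. RNA polymerase I genes were higher in 11 of 14. Those with the smallest p were Cd3eap, a polymerase subunit gene (2.15), and Taf1a and Taf1d, which encode subunits of its promoter selectivity factor (4.61 and 2.27). Ubtf, the gene of the factor that keeps rDNA open, fell from 109.7 ± 15.01 to 77.5 ± 3.38 CPM, a log2 fold change of −0.50 ± 0.11 (SE; adjusted p = 0.00304, edgeR), and Taf1b (−0.47) and Polr1d (0.04) did not pass. The RNA exosome, which degrades spacers and by-products, had 6 of 13 higher (46.2%), 2 lower (15.4%) and a median of 0.28. The shares of all tested genes were 36% higher and 35.3% lower. Mtrex (0.81), Exosc6 (2.36) and Zcchc7 (0.58) had the smallest p, and Exosc4 (−0.57) and Exosc7 (−0.88) fell. C1d (0.28), Exosc2 (−0.25), Exosc5 (−0.20), Exosc8 (−0.08) and Mphosph6 (0.01) did not pass.

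**Figure D5:**
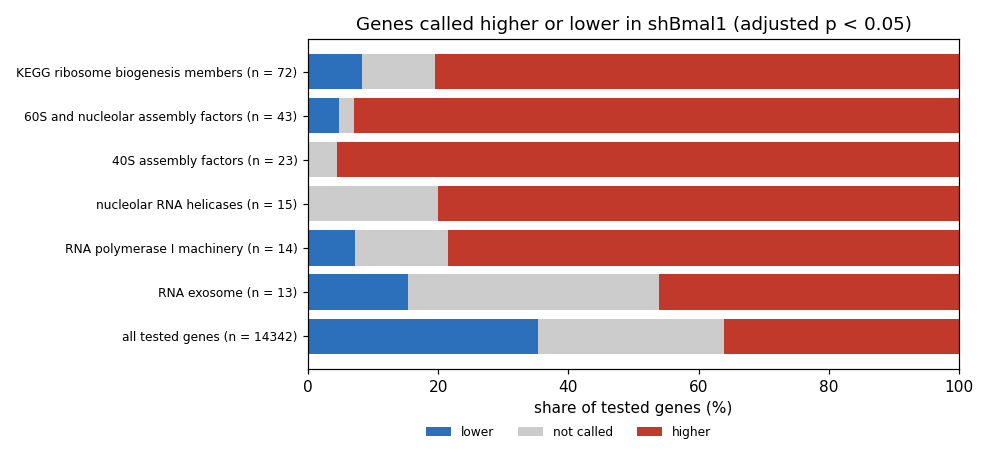
Share of tested genes (x axis, %) called lower (blue), not called (grey) or higher (red) in shBmal1 for the KEGG members, the 5 other lists and all tested genes, with the number of genes beside each name. Red takes 80.6% of the members, 46.2% of exosome genes and 36% of all tested genes.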

How the data were processed

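Genes were those of the deposited table, which holds raw read counts per gene and library and, per the file headers, FPKM values that the authors computed for gene length and depth. Genes without a count are listed by the authors at a small constant, read here as 0. The submitters' processing notes list the programs cutadapt (1.9), HISAT2 (2.0.4) and StringTie (1.3.4d) as well as edgeR and DESeq2, without saying which did what. Build, counter and strandedness: not given in the sources used here. Library preparation is also uncertain, since the protocol in the labels describes oligo-dT capture but also mentions both poly(A) fractions and adipose tissue.

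After filterByExpr with a minimum count of 10 and a minimum total of 15, all remaining genes received TMM factors and were tested with edgeR 4.0.16 in R 4.3.3 (glmQLFit and glmQLFTest, no replicate block), with Benjamini-Hochberg adjustment over all 14342 tested genes. Of the 72 members tested, 70 reached the filter's level in all 3 shNC libraries; the others were Rpp25 and LOC103690013. Means carry the SD over 3 libraries. The SE of a log2 fold change was worked out as its absolute value divided by the square root of the test's F statistic. Sums and ratios of FPKM were compared with exact two-sided permutation tests. The alternatives used DESeq2 1.42.0 and limma 3.58.1, with a pseudocount of 0.1 or 1 on FPKM or TPM. The procedure was tested on simulated counts.

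The members, the role groups and the lists were chosen with earlier results of these data known, and 8 members without a usual symbol were placed in a role by the table's description. Values in every library are given for the 3 members of each role group with the smallest p, the 8 largest rises, the called falls and the most abundant members; the other members named with values in every library, the ratios between members, the motifs and the 5 promoters printed were chosen after values were seen. All value columns could be tied to a sample (0 could not). In the shBmal1 libraries 3 counts correspond to 0.245 to 0.323 CPM, against 0.0637 to 0.0712 CPM in shNC, for counting error alone, so low genes are less certain there. Libraries of the same group differed by more than counting noise in every pair (chi-square divided by its degrees of freedom, 10.8 to 23.5).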

Additional observations from a re-analysis of the deposited data

How the results depend on the processing

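The median log2 fold change of the members was above 0 under every alternative run. Between 51 and 60 members were called higher and 5 to 9 lower, and all 13 role groups kept a median above 0. Most settings tested 72 members, but the DESeq2 Wald test (60 higher) and the run without the count filter (57 higher) took in 77. With 1 library left out, 73 to 75 were tested. The share of all tested genes called higher ran from 25.8% to 37.3% between settings. The median log2 fold change of the members moved most with TPM, to 1.12 (pseudocount 0.1) and 1.07 (pseudocount 1), with 51 and 52 members higher and 8 and 9 lower. These scalings also moved the median of all tested genes, from −0.01 to −0.43 and −0.35, so that the members stood 1.54 and 1.42 above it, against 1.52 in the count test. Over all genes TPM gave 4046 higher and 6539 lower (pseudocount 0.1), against 5167 and 5066. On the other lists TPM gave 71 higher and 11 lower at either pseudocount, against 91 and 5. The members gained as lower with TPM were Pop1 and Drosha (adjusted p = 0.0145 and 0.0181 at pseudocount 0.1, limma) and, at pseudocount 1, Nxt1 (0.0456). With log2(TPM + 1) Rexo5, Heatr1 and Nxt2 came down to 2.66, 2.23 and 0.64. Leaving out 1 library at a time gave 56 to 58 members higher, 5 to 6 lower and a median of 1.44 to 1.51, 84 to 88 higher and 4 to 6 lower on the other lists, a ratio of summed member FPKM of 3.20 to 3.45, a ratio of mitochondrial rRNA shares of 15.2 to 22.3 and of snoRNA shares of 4.43 to 5.15.

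Genes near no change turned sign. Csnk2a1 came to −0.16 at both TPM pseudocounts (−0.161 and −0.160) and −0.108 with quantile-normalized FPKM. Efl1 came to −0.264 and −0.256, Xrn1 to −0.183 and −0.169 and Emg1 to −0.263 and −0.254 with TPM, and Emg1 ran from −0.0458 to 0.201 with 1 library left out. Drosha came to 0.0563 with DESeq2 size factors, 0.00464 with upper quartile scaling, 0.0356 with DESeq2, 0.0317 with quantile-normalized FPKM, 0.00695 without the 50 most abundant genes, 0.165 with the gene length trend removed, 0.160 with that and the replicate block, 0.0503 with protein-coding genes only, and −0.0966 to 0.0314 with 1 library left out. No cause was tested.

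Same-numbered libraries did not deviate together (correlations −0.0732, 0.0113 and 0.0297 for replicates 1, 2 and 3), so the numbers are not taken to pair them. With the replicate block 58 members were higher and 5 lower, with a median of 1.51. Csnk2a1, Nxt2 and Rpp40 were not called (adjusted p = 0.0711, 0.103 and 0.0642, edgeR) and LOC103690013 and Ak6 were (0.00135 and 0.0405). LOC103690013 had no count in replicate 2 of either group, where Nhp2 held the counts, and the replicate term takes up that pattern. Its call under the block therefore depends on how reads were listed between the copies. Summing the NHP2 copies and fitting protein-coding genes only were chosen after seeing the data, and the latter gave 58 higher, 6 lower and a median of 1.56. The depth of shBmal1 limits what can be said of members at a few CPM, such as Rpp40, Nxt2 and Rpp25.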

Other observations

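The KEGG rows left out of the members for their RNA type were also looked at. AABR07068127, a pseudogene annotated with the same orthology entry as Utp14a, rose from 2.00 ± 0.24 to 26.4 ± 2.60 CPM (SD, n = 3 per group; log2 fold change 3.72 ± 0.17, SE; adjusted p = 6.68e-07, edgeR). It lies on chromosome 9, away from Utp14a on chromosome X, and how reads were divided between related sequences is not known. Rn5s and Rn5-8s, the small ribosomal RNAs, had at most 4 counts in any library.

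Genes typed as snoRNA took 44.7, 50.5 and 44.96 CPM (of the total count) in shNC and 268, 214 and 200 in shBmal1, a 4.86-fold difference (exact two-sided permutation test, p = 0.1, the smallest possible for 3 against 3). Nop56, Nop58, Gnl3 and Wdr43 each hold snoRNA genes on their own strand, 16 in all. Those inside Gnl3 had 12, 15 and 14 counts in shNC and 37, 69 and 33 in the shallower shBmal1 libraries, those inside Nop58 had 4, 0 and 9 and 18, 49 and 14, those inside Nop56 had 17, 25 and 15 and 7, 20 and 18, and those inside Wdr43 had 0, 4 and 2 and 0, 0 and 1. Genes typed as misc_RNA took 22.6 to 190.9 CPM in shNC and 1953 to 5153 in shBmal1.

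Among all 32623 genes, LOC103690013 was the only one with no count in 1 library of each group and at least 100 counts in each of the other 4.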
